A study of Mus musculus with 8 samples.

Results

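Semaphorins, plexins and neuropilins form a guidance system of ligands and receptors, and the 31 genes described here are all those in the table whose symbols mark them as members. They were taken by name: 20 semaphorins, 9 plexins and 2 neuropilins, of 15035 genes in all. Their values did not enter that rule, but earlier results of these data were known when the members were chosen. The same 31 symbols make up the family among protein-coding genes in RefSeq GRCm38.p6, so each member listed there had a row.

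RNA was sequenced from auditory nerves, the bundles that join the cochlea to the brainstem, of mice at postnatal day 21. The first group was 4 wild-type mice (replicates 1 to 4) and the second 4 mice labelled heterozygous for Mef2c (Mef2c +/-), a transcription factor gene (replicates 5 to 8). Each library holds the nerves of both cochleas of a single mouse, and the design asks what differs when 1 copy of Mef2c is lost. The labels name no strain, sex, litter or type of Mef2c allele, and both groups share age, tissue and preparation.

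Semaphorins are secreted or membrane-bound proteins that steer axons, blood vessels and immune cells. Most act through plexins, large receptors whose cytoplasmic part switches off Ras-family GTPases and passes signals to the cytoskeleton. The secreted class 3 proteins mostly need a neuropilin as the binding partner of a plexin, and neuropilins also bind vascular growth factors. In the developing cochlea, semaphorin 3F and neuropilin-2 are known for their part in directing spiral ganglion axons.

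Values are normalized counts, that is, read counts divided by a size factor for each library. Depth was estimated at 13363365 to 21507072 reads per library, and every member was measured above the 2.37 to 3.89 normalized counts that 3 reads are worth. Mef2c itself goes against the label. It had 402.2 to 508.7 normalized counts in wild type, against 583.3 to 735.1 for the libraries labelled heterozygote (log2 fold change 0.53, limma-trend adjusted p 0.186). In the authors' deposited table it had a ratio of 1.44 and an FDR of 0.0162. Each direction given here is therefore between libraries as labelled. Reads over a targeted exon were not analysed here. Wild-type library 1 stands apart from the others. It held the lowest value of 10 of the 31 members, wild-type library 4 of 8, and libraries 6 and 8 of 0. Wild-type library 1 and library 5 were also low in Xist, at 12 and 7.6 normalized counts against 5175.3 to 8615.3.

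Fold changes in this table also follow transcript length. Log2 fold change and the length of the longest annotated transcript had a rank correlation of 0.431 across 14517 genes, which are not independent replicates. Genes were split into 10 length bins, whose medians went from -0.25 (shortest) to 0.23 (longest). The trend was uneven between libraries. The slope of each library's log2 deviation on log2 length was -0.21, -0.03, 0.07 and -0.10 in wild-type libraries 1 to 4. In libraries 5 to 8 it was 0.03, 0.05, 0.04 and 0.15. The groups overlapped, and wild-type library 1 had the steepest slope. The members are long. Their median is 5930 bases against 3405 for all tested genes, and 28 of 31 lie above that value. Each member's difference is therefore also given after removal of the length trend from each library, and the part of length in the results beyond that correction was not tested.

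To set the levels of members side by side, normalized counts were divided by the length of each gene's longest transcript. On that scale Sema7a was the highest by far, with group means of 3331 normalized counts per kilobase (wild type) and 3193 (labelled heterozygote, n = 4 each). Sema7a encodes a semaphorin held in the membrane by a lipid (GPI) anchor. It made up 46.5% ± 1.93 of the summed semaphorin level in wild type and 44.4% ± 1.94 in the other group (SD, n = 4 each). Sema3b, a secreted member, came second with 993.8 and 1100 normalized counts per kilobase in the same order. Among receptors, Nrp1 (530.1 and 577.7 per kilobase) and Plxnb2 (443.8 and 473.8) were the highest. Sema5b was the lowest member, with 10.96 and 15.3 per kilobase.

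**Figure D1:**
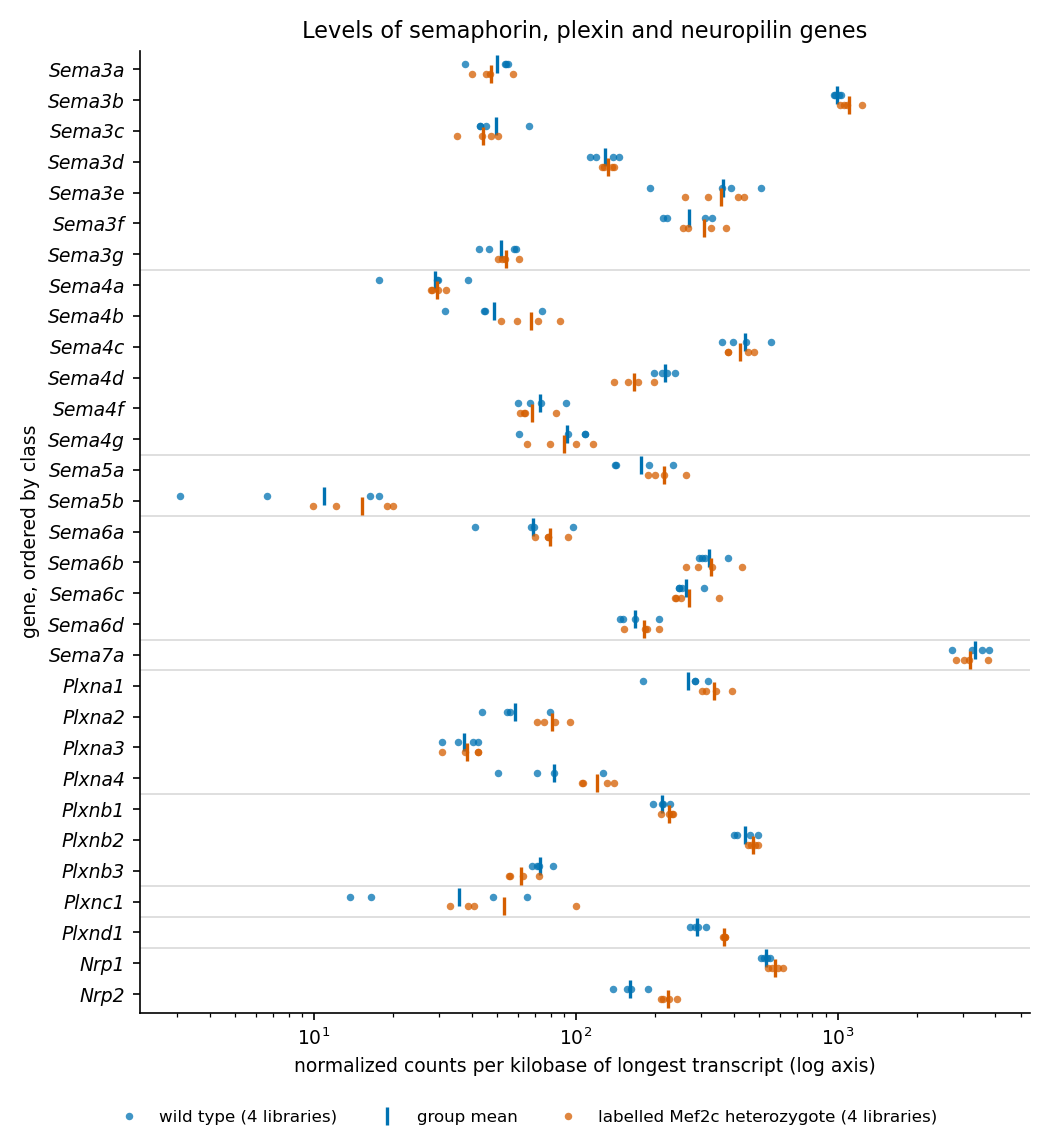
Levels of the 31 genes in each library, as normalized counts per kilobase of the longest transcript on a log axis, with points for the 4 wild-type (blue) and 4 heterozygote-labelled (orange) libraries and a tick at each group mean. Sema7a stands above all others, Sema5b lies lowest at 10.96 per kilobase in wild type, and Nrp2, Plxnd1 and Sema4d are the 3 genes whose groups do not overlap.

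Most receptor genes had more reads in the libraries labelled heterozygote, and the ligands were mixed. Of 9 plexins and 2 neuropilins, 10 (90.9%) had a positive log2 fold change, with a median of 0.34, and of all tested genes 52.3% were positive. Of 20 semaphorins, 13 were positive and 7 negative, with a median of 0.04, and the median over all 14870 tested genes was 0.02. With limma-trend and Benjamini-Hochberg adjustment over all tested genes, 0 of 31 members had an adjusted p under 0.05, where 0.0807% of all genes (12) did, 0.00672% higher and 0.074% lower. limma-voom also called 0 members. At an unadjusted limma-trend p under 0.05, 5 members (16.1%) were higher in the libraries labelled heterozygote: Nrp2, Plxnd1, Plxna1, Plxna2 and Plxna4. The share over all genes was 6.72%. Only Sema4d (3.23% of members) was lower at that level, against 7.34% of all genes. In 3 members (9.68%) the groups did not overlap at all, against 7.26% of all genes. These were Nrp2 and Plxnd1, both higher (3.4% of all genes were), and Sema4d, lower (3.86%).

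After the length correction, 1 member (Nrp2) was higher at an unadjusted p under 0.05, where 3.97% of all genes were. There were then 2 lower members, Sema4d and Plxnb3, against 7.10% of all genes. The median over plexins and neuropilins was 0.13, with 7 of 11 positive, and over semaphorins -0.06, with 7 of 20 positive. Of all 14517 genes with a length, 47.8% were positive after the correction, with a median of -0.01. Over all genes the correction moved the share of higher among those at p under 0.05 from 47.8% to 35.9%.

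**Figure D2:**
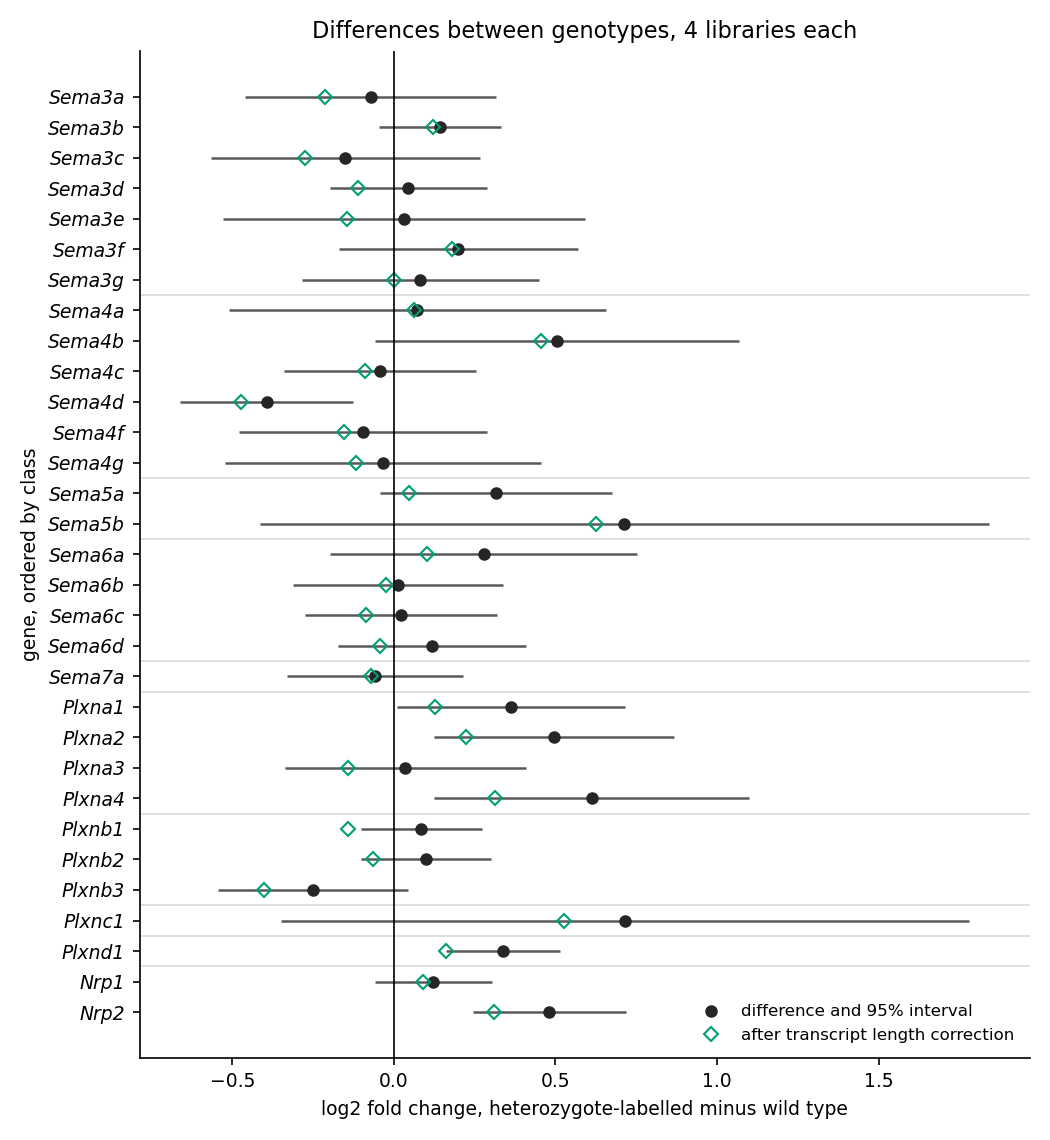
Log2 fold change of each gene (heterozygote-labelled minus wild type, horizontal axis) with its 95% interval from the limma-trend fit to 4 libraries per group, and the value after correction for transcript length (open diamonds). Intervals of 6 genes lie clear of 0 (Nrp2, Plxnd1, Plxna1, Plxna2 and Plxna4 above, Sema4d below). After the correction the diamonds of the 5 higher genes lie nearer to 0 and that of Sema4d farther from it.

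Nrp2 (chr1:62703285-62818695, plus strand, GRCm38) encodes neuropilin-2, the receptor for semaphorin 3F and a co-receptor for vascular growth factors. In wild-type libraries 1 to 4 it had 1264, 1094, 1050 and 931.3 normalized counts. Libraries 5 to 8 had 1425, 1451, 1518 and 1639. Each heterozygote-labelled library lay above all wild-type ones, of which library 1 was the nearest. The means were 1085 ± 138 and 1508 ± 95.6 (SD, n = 4 each). The log2 fold change was 0.48 (standard error 0.11), with a limma-trend unadjusted p of 0.00081 and an adjusted p of 0.162. A two-sided exact permutation test gave a p of 0.0286, the lowest possible with 4 against 4. Any gene whose groups do not overlap gets this p, as 7.26% of all genes do, so it adds nothing to the lack of overlap. The log2 fold change was 0.31 after the length correction (limma-trend unadjusted p 0.0246), and the groups then overlapped. It was from 0.41 to 0.56 with each library left out in turn. The unadjusted limma-trend p was under 0.05 in all 18 alternatives tried and the adjusted p in 0, with a range of 0.0534 to 0.57. In the authors' deposited table Nrp2 had a ratio of 1.39 and an FDR of 0.0122.

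Plxnd1 (chr6:115954811-115995005, minus strand) encodes plexin-D1, a receptor best known in blood vessels that binds semaphorin 3E directly. It had 2022, 2165, 1970 and 1890 normalized counts in wild-type libraries 1 to 4. In libraries 5 to 8 it had 2557, 2510, 2533 and 2559, with an SD of 0.902% of the mean. The groups did not overlap, and the means were 2012 ± 115 and 2540 ± 22.9 (SD, n = 4 each). The log2 fold change was 0.34 (standard error 0.08), with a limma-trend unadjusted p of 0.00127 and an adjusted p of 0.186 (range over alternatives 0.0695 to 0.584). A two-sided exact permutation test gave p = 0.0286, the value that any gene without overlap gets. After the length correction the log2 fold change was 0.16 and the unadjusted limma-trend p 0.0955, and the groups then overlapped. The authors' deposited table gave a ratio of 1.26 and an FDR of 0.0106. Nrp2 and Plxnd1 were the 2 members (6.45%) with an FDR under 0.05 in the authors' deposited table, where 1.61% of all genes were, 0.672% higher and 0.938% lower.

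Endothelial cells are a known site of plexin-D1. In the list of 7 endothelial markers, 2 were lower at an unadjusted p under 0.05 (Emcn and Cldn5), 0 were higher, and 3 had a positive log2 fold change. Over all genes 7.34% were lower and 6.72% higher at that level. After the length correction Emcn stayed under it (log2 fold change -0.74, unadjusted limma-trend p 0.00752) and Cldn5 did not (-0.28, 0.0596). None of the 7 markers was at 0 in any library. Without that correction their summed level was 6203 to 8029 normalized counts in wild type and 5332 to 6181 in libraries 5 to 8. The part of these cells in the Plxnd1 value was not tested. The vascular ligands and receptors that share neuropilins showed 0 of 8 genes at an unadjusted limma-trend p under 0.05. Kdr had a log2 fold change of 0.22 and Vegfa of 0.10, both within the spread between libraries.

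The upstream sequence of both genes is shown because they were the 2 members higher without overlap. Each is read on the gene's own strand from RefSeq GRCm38.p6 and ends before the annotated start. The first is chr1:62703067-62703284 (plus strand) and the second chr6:115995006-115995255 (minus strand). Capitals mark GGGCGG, the core of the GC box, on either strand; neighbouring matches may overlap.
Nrp2: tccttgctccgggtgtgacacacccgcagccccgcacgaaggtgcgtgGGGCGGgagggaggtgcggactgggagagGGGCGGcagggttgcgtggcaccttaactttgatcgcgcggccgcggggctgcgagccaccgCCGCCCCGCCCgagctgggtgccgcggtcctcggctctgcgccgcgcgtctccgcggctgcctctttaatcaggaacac
Plxnd1: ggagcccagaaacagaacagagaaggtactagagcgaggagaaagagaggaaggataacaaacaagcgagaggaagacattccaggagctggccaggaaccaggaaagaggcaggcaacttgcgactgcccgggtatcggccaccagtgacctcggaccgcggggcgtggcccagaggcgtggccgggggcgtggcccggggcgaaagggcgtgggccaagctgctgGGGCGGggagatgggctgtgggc

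GGGCGG occurred 4 times in the Nrp2 stretch and 1 time in that of Plxnd1. RefSeq start sites were matched for 26 of the 31 members, with 37 windows of 250 bases. Plxna1, Plxna4, Sema3b, Sema3f and Sema6a had no entry. GGGCGG was in 73% of the members' windows (21 of 26 genes) and in 32.7% of all 32851 windows of that length. The 32851 windows were not limited to genes tested here, as the members are, and a gene can have more than 1 window. The shares are therefore of unlike sets. TATAAA, searched on both strands, was in 0 of the members' windows against 12.4% of all, and CCAAT was in 18.9% against 33.8%. The MEF2 consensus motif was in 0 of the 37 windows and in 0.508% of all windows. At so low a share, 0 is the likely count for any 37 windows, so it says nothing particular about the members. A match is only a run of letters, and an absent one says nothing on binding elsewhere.

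Of the class A plexins, the signalling partners of neuropilins and the direct receptors of class 6 semaphorins, 3 of 4 were higher at an unadjusted p under 0.05. Plxna1 (chr6:89316314-89362620, minus strand) had 1624, 2572, 2883 and 2575 normalized counts in wild-type libraries 1 to 4 and 3090, 2827, 2726 and 3553 in libraries 5 to 8. Wild-type library 1 was low, and wild-type library 3 lay among the heterozygote-labelled values. Its log2 fold change was 0.36 (standard error 0.16), with a limma-trend unadjusted p of 0.0454 (adjusted 0.345). Without wild-type library 1 it was 0.18 (limma-trend unadjusted p 0.104), and after the length correction 0.13 (0.265). It had an unadjusted p under 0.05 in 11 of 18 alternatives, and also missed it without wild-type library 2 or library 5, 6 or 8. An antisense transcript annotated over 970 of its exonic bases cannot be told apart from it unless strand was used in counting.

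Plxna2 (chr1:194618218-194816869, plus strand) had 881.2, 600.1, 620.6 and 481.9 normalized counts in wild-type libraries 1 to 4. Libraries 5 to 8 had 833.1, 1046, 784.1 and 917.9. Here wild-type library 1 was high and was the only one to overlap, while in Plxna1 it was the lowest. This gave a log2 fold change of 0.50 (standard error 0.17), with a limma-trend unadjusted p of 0.013 (adjusted 0.278). It was 0.69 without the 2 libraries low in Xist, wild-type library 1 and library 5, and 0.22 after the length correction (limma-trend unadjusted p 0.303).

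Plxna4 (chr6:32144268-32588192, minus strand), a receptor for class 3 and class 6 semaphorins on axons, had the largest difference of the 6. Its values were 651.5, 917.9, 1632 and 1064 normalized counts in wild-type libraries 1 to 4. Libraries 5 to 8 had 1799, 1371, 1355 and 1698. Wild-type library 3 was high, and the other wild-type libraries lay below all of libraries 5 to 8. This came to a log2 fold change of 0.61 (standard error 0.22), with a limma-trend unadjusted p of 0.0183 (adjusted 0.286). Without wild-type library 3 it was 0.84 with a limma-trend adjusted p of 0.0399, and over all 18 alternatives the adjusted p ran from 0.0399 to 0.616. Without wild-type library 1 it was 0.40 (limma-trend unadjusted p 0.043), without both libraries low in Xist 0.33 (0.112), and after the length correction 0.31 (limma-trend unadjusted p 0.0774). At 12877 bases it has the longest transcript of the family, and 110 of its exonic bases overlap an antisense transcript. Plxna3, the fourth class A plexin, had a log2 fold change of 0.04 (95% interval -0.34 to 0.41).

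**Figure D3:**
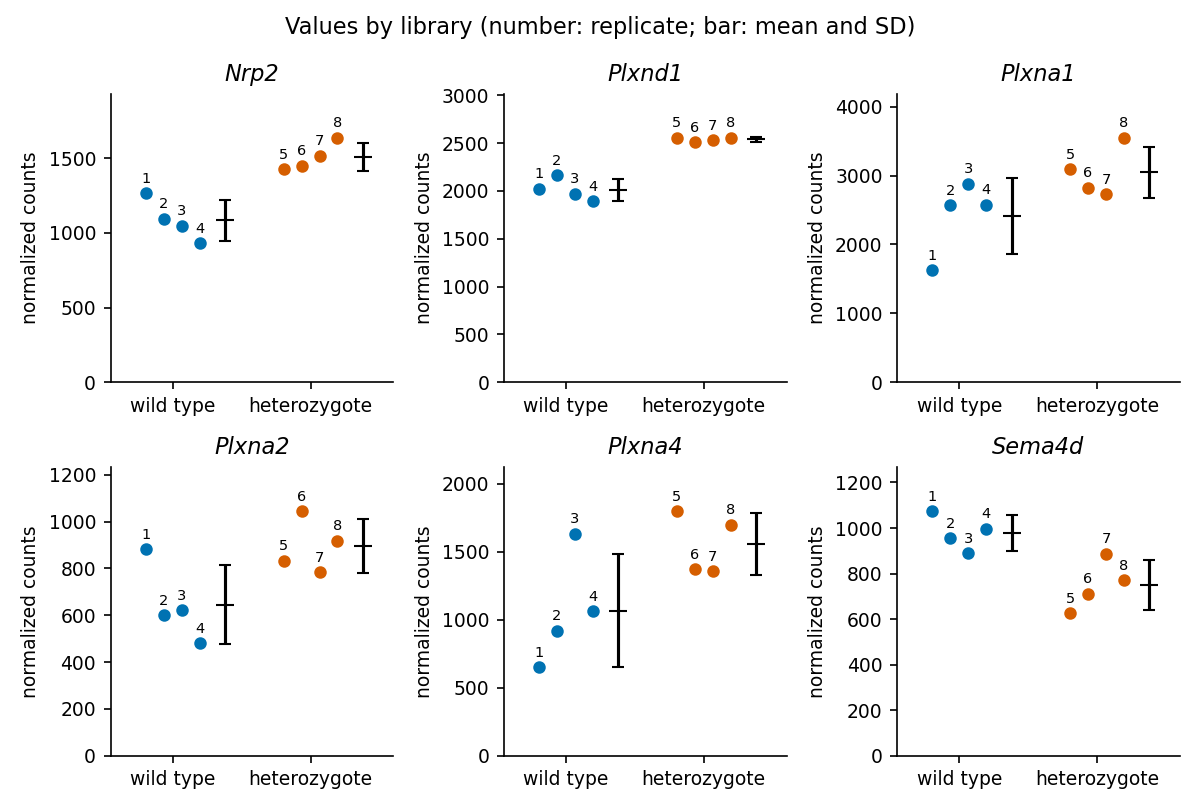
Normalized counts in each library for the 6 genes at an unadjusted p under 0.05, with the replicate number at each point and the mean and SD of each group as a bar. Libraries 5 to 8 lie above all wild-type libraries for Nrp2 and Plxnd1 and below them for Sema4d, while 1 wild-type library overlaps with libraries 5 to 8 for Plxna1 (library 3), Plxna2 (library 1) and Plxna4 (library 3).

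None of the other receptors had an unadjusted p under 0.05 with all libraries and no length correction. Plxnb2, which encodes a receptor for class 4 semaphorins, was among the 3 members with the most reads. Its wild-type libraries 1 to 4 had 2684, 3235, 2604 and 3011 normalized counts and libraries 5 to 8 had 2944, 3207, 3132 and 3030. The groups overlapped throughout, and the log2 fold change was 0.10 (95% interval -0.10 to 0.30), or -0.06 after the length correction. Plxnb1, the main receptor of semaphorin 4D, had a log2 fold change of 0.09 (95% interval -0.10 to 0.27) and changed sign to -0.14 with that correction. Nrp1, the receptor of semaphorin 3A, had 1932 ± 64.4 and 2106 ± 125 normalized counts (SD, n = 4 each), and a log2 fold change of 0.12 (95% interval -0.06 to 0.30). Without wild-type library 1 the Nrp1 groups did not overlap. Whether Nrp2 and Nrp1 differ in their change was not tested.

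Plxnc1, the plexin that binds semaphorin 7A, varied most of all receptors, with a spread of 69.4% of the mean in wild type and 59.4% in the other group. It had 473.7, 120.6, 352 and 100.3 normalized counts in wild-type libraries 1 to 4 and 241.1, 732.8, 282.7 and 297.2 in libraries 5 to 8. Library 6 was far above the rest and wild-type libraries 2 and 4 far below. The log2 fold change of 0.72 had a 95% interval of -0.35 to 1.78, and single libraries moved it. It was 0.36 without wild-type library 4 or library 6 and 1.10 without wild-type library 1. Leaving out both libraries low in Xist gave 1.28 (limma-trend unadjusted p 0.0203, adjusted 0.292).

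Plxnb3 was the 1 receptor with a negative log2 fold change, -0.25 (standard error 0.14, limma-trend unadjusted p 0.0889, adjusted 0.41). The gene encodes plexin-B3, known from oligodendrocytes and as a receptor of semaphorin 5A. It had 441.2, 449.5, 421.7 and 508.5 normalized counts in wild-type libraries 1 to 4 and 346.5, 389.5, 348.7 and 451 in libraries 5 to 8. Library 8 alone overlapped with wild type. Without library 8 the log2 fold change was -0.33 (limma-trend unadjusted p 0.0412) and the groups did not overlap. With the length correction it was -0.40 (limma-trend unadjusted p 0.0108, adjusted 0.31), again with no overlap.

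Summed over genes per kilobase, plexins gave 1408, 1575, 1532 and 1500 normalized counts in wild-type libraries 1 to 4 and 1727, 1809, 1670 and 1836 in libraries 5 to 8. Neuropilins gave 659.8 to 739.2 in wild type and 773.1 to 842.7 in libraries 5 to 8. Neither receptor sum overlapped between the groups, and the semaphorin sum did, at 6269 to 7987 and 6553 to 8107. After the length correction both receptor sums overlapped as well: plexins ran from 1463 to 1715 and from 1582 to 1719, and neuropilins from 661.6 to 786 and from 747.2 to 815.

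**Figure D4:**
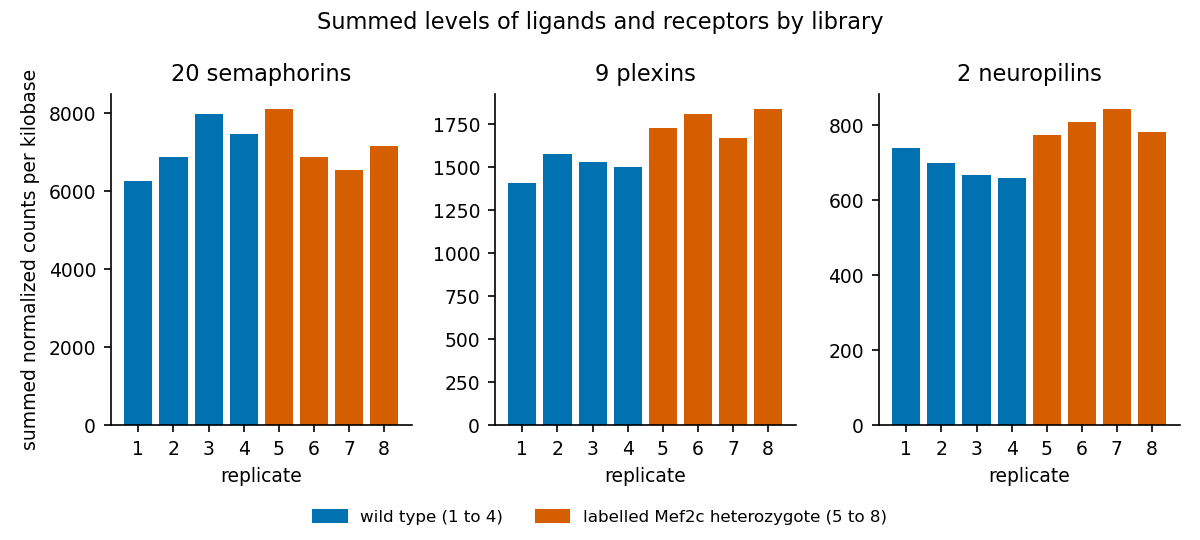
Summed normalized counts per kilobase of the 20 semaphorins, 9 plexins and 2 neuropilins in each library, as bars from 0 (blue, wild-type replicates 1 to 4, and orange, heterozygote-labelled replicates 5 to 8). The plexin sum is 1408 to 1575 in wild type and 1670 to 1836 in the other group, while the semaphorin sums of the groups overlap.

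Among the 20 semaphorins, Sema4d alone had an unadjusted limma-trend p under 0.05 with all libraries, and it was lower. Over all genes 7.34% were lower at that level and 3.86% were lower without overlap, so 1 of 20 is near these shares. Sema4d (chr13:51685529-51793747, minus strand) encodes a transmembrane class 4 semaphorin that signals through plexin-B1 and is known from oligodendrocytes and lymphocytes. It had 1075, 954.1, 888.2 and 996.5 normalized counts in wild-type libraries 1 to 4. Libraries 5 to 8 had 625.7, 711, 886.8 and 771.6. The groups did not overlap, but library 7 at 886.8 and wild-type library 3 at 888.2 nearly met. The means were 978.4 ± 78.1 and 748.8 ± 110 (SD, n = 4 each), and the log2 fold change was -0.39 (standard error 0.12). The limma-trend unadjusted p was 0.0077 and the adjusted p 0.266 (range over alternatives 0.0877 to 0.615). A two-sided exact permutation test gave p = 0.0286. The value was -0.47 after the length correction and -0.26 without the 2 libraries low in Xist, and it was negative in all 18 alternatives. With upper-quartile scaling the groups overlapped. Its FDR in the authors' deposited table was 0.122.

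Oligodendrocyte genes differed in the same direction. Of 8 oligodendrocyte markers, 7 were lower at an unadjusted limma-trend p under 0.05, without overlap, and 3 of them passed the adjusted threshold. Their summed level was 17020 to 22180 normalized counts in wild type and 4582 to 9725 in libraries 5 to 8. Among the 8, Opalin was near the floor, at 3.6 to 27.3 normalized counts. The part of oligodendrocytes in the Sema4d and Plxnb3 values was not tested. In bulk tissue, fewer cells of a type and less RNA per cell cannot be told apart. Sema4d was lower by less than the markers, whose median log2 fold change was -1.30.

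The other class 4 semaphorins, all transmembrane, were mixed. Sema4b had a log2 fold change of 0.51 with a wide 95% interval (-0.06 to 1.07). Wild-type library 4 reached 293.5 normalized counts and the other wild-type libraries 124.6 to 176.9, against 204.2 to 343 in libraries 5 to 8. Single libraries moved it in both directions. It was 0.73 without wild-type library 4, with no overlap (limma-trend unadjusted p 0.00923, adjusted 0.477), 0.32 without wild-type library 1 (0.194, adjusted 0.591) and 0.37 without library 7 (0.205, adjusted 0.607). Sema4c, the class 4 member with the most reads, had -0.04 (95% interval -0.34 to 0.25). Sema4a, Sema4f and Sema4g had log2 fold changes from -0.10 to 0.07, and Sema4g went from -0.03 to -0.23 without wild-type library 1.

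In the secreted class 3, log2 fold changes of the 7 members lay between -0.15 (Sema3c) and 0.20 (Sema3f), and 0 had an unadjusted p under 0.05. Without wild-type library 1 Sema3c went to -0.0012 and Sema3f to 0.30. Sema3b had 3307, 3339, 3538 and 3463 normalized counts in wild-type libraries 1 to 4 and 4236, 3502, 3626 and 3734 in libraries 5 to 8. Library 5 was the highest, library 6 lay between wild-type libraries 4 and 3, and the log2 fold change was 0.14 (95% interval -0.05 to 0.33). Sema3e, the ligand of plexin-D1, had 1319, 2477, 3497 and 2688 normalized counts in wild type and 2851, 1787, 2188 and 3003 in libraries 5 to 8. Its log2 fold change was 0.03 (95% interval -0.53 to 0.59), and its sign depended on single libraries. It was -0.25 when wild-type library 1 was left out and 0.22 when wild-type library 3 was left out. Sema3f, the ligand of neuropilin-2, had 913.9 ± 201 and 1043 ± 189 normalized counts (SD, n = 4 each). The log2 fold change was 0.20 (95% interval -0.17 to 0.57). Sema3a, a repellent that acts through neuropilin-1, had a log2 fold change of -0.07 (95% interval -0.46 to 0.32). For Sema3d it was 0.05 and for Sema3g 0.08.

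Sema7a was the member with the most reads in every library. It had 9004, 10740, 12491 and 11692 normalized counts in wild-type libraries 1 to 4 and 12361, 10417, 9292 and 10043 in libraries 5 to 8. The groups overlapped, and the log2 fold change was -0.06 (95% interval -0.33 to 0.21). Without the 2 libraries low in Xist the groups parted, at -0.23 with a limma-trend unadjusted p of 0.0422 and an adjusted p of 0.355. Wild-type library 1 was the lowest and library 5 the highest of their groups.

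Class 5 proteins carry thrombospondin repeats outside the cell. Sema5a had 1535, 2055, 2544 and 1523 normalized counts in wild-type libraries 1 to 4 and 2161, 2044, 2351 and 2833 in libraries 5 to 8. The groups overlapped, and the log2 fold change of 0.32 (95% interval -0.04 to 0.68) went to 0.05 with the length correction. Sema5b had the lowest counts, 14.3 to 82.5 in wild type and 45.9 to 93.4 in libraries 5 to 8, with a log2 fold change of 0.71 (95% interval -0.42 to 1.84), or 0.23 without wild-type library 1. In class 6, whose members signal through class A plexins, log2 fold changes were 0.28 for Sema6a, 0.01 for Sema6b, 0.02 for Sema6c and 0.12 for Sema6d, each with an interval that holds 0. The Sema6a transcript was lowest in wild-type library 1, at 281.6 normalized counts against 460.2 to 665.5 in the other wild-type libraries. Its log2 fold change was 0.05 without that library, and 0.47 without wild-type library 3, with no overlap (limma-trend unadjusted p 0.0325, adjusted 0.178).

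**Figure D5:**
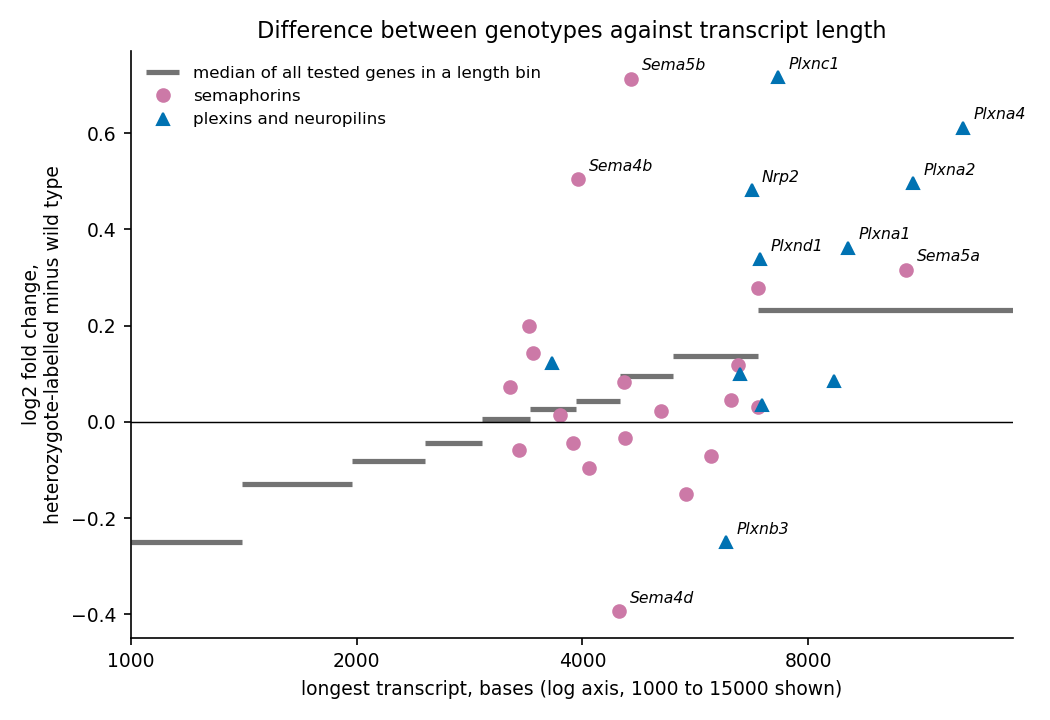
Log2 fold change (heterozygote-labelled minus wild type) of semaphorins (circles) and of plexins and neuropilins (triangles) against the length of the longest transcript on a log axis, with grey bars for the median of all tested genes in each of 10 length bins. The bars climb from -0.25 to 0.23. Among the labelled genes, Plxna4, Plxna2, Nrp2, Plxna1, Plxnd1, Sema5a, Sema5b, Plxnc1 and Sema4b lie above the bar of their length, and Sema4d and Plxnb3 lie below it.

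Against genes of their own length bin, 14 of the 31 members lay above the median of their bin and the median distance was -0.01. For plexins and neuropilins it was 7 of 11, with a median distance of 0.11, and for semaphorins 7 of 20, with -0.04. Nrp2 lay 0.34 above its bin, Plxna4 0.38, Plxna2 0.26, Plxna1 0.13 and Plxnd1 0.11. Sema4d lay at -0.44 from the median of its bin. These genes were picked for their difference in the same data, so their distances add no separate support. Of the members not picked, Sema5b lay 0.62 above its bin, Plxnc1 0.48 and Sema4b 0.46, and Plxnb3 lay at -0.39. Across the 31 members, length and log2 fold change had a rank correlation of 0.419, close to that over all genes, and is given as a description.

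Of 72 other genes of the pathway, in 8 lists, 71 were tested. At an unadjusted limma-trend p under 0.05, 12 were higher and 6 lower, where 6.72% and 7.34% of all genes were. After adjustment over all genes 0 passed, and the median log2 fold change was 0.10. After the length correction the counts were 3 higher and 7 lower, against 3.97% and 7.1% of all genes, and 1 gene (Adamts4) passed. These shares over all genes apply to each list below, and no list was tested as a set. The guanine nucleotide exchange factors, GTPase-activating proteins and adaptors that sit on plexin tails had 5 of 11 genes higher and 0 lower, with a median of 0.30. Among them were the 2 plexin-B-bound exchange factors Arhgef11 (log2 fold change 0.46) and Arhgef12 (0.32), and Farp2 (0.53), which binds class A plexins. Farp2 had 149.2 to 204.3 normalized counts in wild type and 207.2 to 293.2 in libraries 5 to 8, with no overlap. This list is long too, with a median of 6776 bases. After the length correction its median was 0.06, and Arhgef11 and Farp2 kept an unadjusted p under 0.05.

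The small GTPases mostly went the other way. Of 12, 10 had a negative log2 fold change, where 52.3% of all genes had a positive one. Their median was -0.14 (-0.20 after the length correction). At an unadjusted p under 0.05, 2 were lower and 1 higher, against 7.34% and 6.72% of all genes. Rap1a, a Ras-family GTPase that plexins inactivate, had 1417, 1233, 1177 and 1285 normalized counts in wild-type libraries 1 to 4 and 938.5, 850.4, 1041 and 899.2 in libraries 5 to 8. The groups did not overlap, with a log2 fold change of -0.46 and a limma-trend unadjusted p of 0.00083 (adjusted 0.162). Rnd2 was the second lower gene (-0.31, or -0.18 after the length correction with a limma-trend unadjusted p of 0.0784), and Mras the higher one (0.32, or 0.23). After that correction 3 genes of the list were lower and 1 higher at an unadjusted p under 0.05.

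The collapsin response mediators, which carry semaphorin 3A signals to microtubules, had 1 gene in each direction out of 5. Dpysl2 (CRMP2) had 2706 to 3260 normalized counts in wild type. Libraries 6 to 8 had 2020 to 2225 and library 5 had 2820, within the wild-type range. Its log2 fold change was -0.38 (limma-trend unadjusted p 0.00656, adjusted 0.259). Dpysl3 was higher without overlap, with 1561 to 1846 normalized counts in wild type and 1948 to 2038 in libraries 5 to 8 (log2 fold change 0.26, or 0.14 after the length correction with a limma-trend unadjusted p of 0.101). The MICAL enzymes, which oxidize actin downstream of plexins, and their reductases had 0 of 5.

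Co-receptors such as L1cam, which pairs with neuropilin-1, had 2 of 11 higher (L1cam 0.43 and Chl1 0.53) and 2 lower (Cntn2 -0.27 and Cd44 -0.39). Kinases and cytoskeletal targets had 1 of 12 higher (Gsk3b 0.44) and 0 lower. In the list of proteases, Furin, which cuts and activates class 3 semaphorins, and Pcsk5 were higher (0.26 and 0.43). After the length correction the 5 higher genes of these 3 lists had an unadjusted limma-trend p above 0.05: L1cam 0.32 (p 0.0754), Chl1 0.34 (0.162), Gsk3b 0.22 (0.0719), Furin 0.13 (0.33) and Pcsk5 0.25 (0.101). Cntn2 and Cd44 stayed under it. Adamts4 was lower, with 695.7 to 898.1 normalized counts in wild type and 327 to 556 in libraries 5 to 8. Its log2 fold change was -0.92, with a limma-trend adjusted p of 0.0632, or 0.0288 after the length correction. Adamts4 is known as a protease of proteoglycans. The part of oligodendrocytes, whose markers were lower as well, in the Adamts4 value was not tested.

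The tissue label was checked with marker lists. Neuron markers summed to 195500 to 269700 normalized counts in wild type and 219500 to 262400 in libraries 5 to 8, and myelinating Schwann cell markers to 110500 to 142900 and 101900 to 143400. In both lists 0 of 8 genes had an unadjusted p under 0.05 and none was at 0. Astrocyte markers, 3 of 5 lower at an unadjusted p under 0.05, summed to 14780 to 24140 and 6754 to 13310, which does not overlap, as for oligodendrocytes. Osteoblast markers, 3 of 6 higher at that level, summed to 2843 to 10100 and 6036 to 12770. Neutrophil markers had the largest differences of the lists, with 3 of 4 tested higher without overlap and a median log2 fold change of 3.67. They summed to 106.3 to 2346 and 649.1 to 6030, and S100a8 went from a mean of 26.3 to 573 normalized counts. Of the satellite and non-myelinating glia markers 1 of 4 was lower at an unadjusted p under 0.05 (Fabp7, -1.20, no overlap), and of the lateral wall and supporting cell markers 1 of 5 was higher (Otog, 1.07). For macrophages it was 1 of 7, lower, and for fibroblasts 0 of 5. Over all genes 6.72% were higher and 7.34% lower at that level. Lateral wall and supporting cell markers, which are not nerve genes, summed to 112500 to 145200 in wild type and 128200 to 160000 in libraries 5 to 8. Most of that was Coch, with means of 116822 and 132917 normalized counts. The part of any of these cell types in the members' values was not tested.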

How the data were processed

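In the authors' deposited table, each library has a signal column of counts divided by a size factor, as judged from its values and the submitters' processing notes. Those notes name STAR, Partek, DESeq2 and mm10, with no roles or versions, and the annotation is not given in the sources used here. Per the file headers, the authors also gave each gene a p-value with FDR, a heterozygote to wild-type ratio and the log2 of that ratio. A signed score deposited beside them was left out. Which model gave them is not stated.

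Per the labels' protocols, RNA of low integrity was excluded and libraries were stranded poly(A) preparations. Replicate mice were sequenced singly. Between 87.8% and 91.7% of values under 1000 were whole multiples (within 0.05) of 1 step per library, against 7.7% to 12.7% by chance, so reads were not treated as recovered and no count model was used. Depth is the column total over that step. p-values rest on the spread between mice.

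Genes with at least 10 in at least 4 libraries (14870, all 31 members among them) were tested as log2(value + 1) with limma-trend, 6 residual degrees of freedom and no covariate, adjusted by Benjamini-Hochberg over all tested genes at 0.05. Log2 fold changes understate low genes. "Higher" and "lower" at an unadjusted p under 0.05 are counts, not calls. Checked on simulated data for 14870 genes, the fit recovered 79% of genes changed 2-fold and 95% of those changed 4-fold. Smaller changes, such as those of all members, were not simulated, nor were differences that genes of a library share. These shares therefore do not give the power for the members. Transcript lengths are those of the longest GENCODE M21 transcript, matched by symbol for 97.6% of tested genes. The length correction removed a loess trend (span 0.5) of each library's deviation, and the per-kilobase levels assume that transcript.

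Values per library are given for members with an unadjusted p under 0.05 or no overlap and for the 3 with the most reads, by a rule. A few other members were shown in each library after their values were seen. Members, lists and alternatives were chosen with earlier results of these data known. The alternatives were other pseudocounts, filters and scalings, limma-voom, low Xist as a covariate or its libraries left out, the length correction and each library left out. R 4.3.3, limma 3.58.1, Python 3.11.15 and matplotlib 3.10.9 were used.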

Additional observations from a re-analysis of the deposited data

Results flagged for a closer look

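In 64 groups of 4 libraries (the 31 members and Mef2c in each genotype), 6 had 1 library far from the other 3, and chance gives about 3.2, or 1 in 20. For Plxnc1, library 6 was high in the heterozygote-labelled group at 732.8 normalized counts against 241.1 to 297.2 (gap 0.886 of the range). For Sema3a, wild-type library 4 was low at 223.5 against 319.3 to 326.5 (0.93), and for Sema3c, wild-type library 1 was high at 363.4 against 236.5 to 248.4 (0.906). For Sema4f, library 5 was high at 342.2 against 250.3 to 261.4 (0.879). Sema6c was flagged in both genotypes: wild-type library 4 was high at 1571 against 1258 to 1298 (0.871), and library 5 at 1798 against 1218 to 1279 (0.894). None of these 5 genes had an unadjusted limma-trend p under 0.05 with all libraries.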

How the results depend on the processing

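The count of members past the adjusted threshold was 0 in all but 1 of the 18 alternatives, the exception being 1 member (Plxna4) without wild-type library 3. Leaving out single libraries gave 0 to 1 members past it, 4 to 7 higher (3.85% to 11.6% of all genes) and 1 to 2 lower (4.1% to 11.4%) at an unadjusted p under 0.05, and 3 to 7 without overlap. Without wild-type library 3 there were 7 higher (11.6% of all genes) and 7 without overlap (20.9%). The count without overlap was 5 without wild-type library 1 (10.4%) or library 8 (8.74%), and the lower count was 2 without library 8 (4.1%). The length correction gave 1 higher (3.97% of all genes) and 2 lower members (7.1%). Without the 2 libraries low in Xist there were 2 lower members (6.4% of all genes) and 6 without overlap (18.5%), shares near those of all genes. Over all genes the count of 12 became 7 with quantile normalization and 30 with the length correction. It ran from 0 to 221 with single libraries left out: 0 without library 8 or either of wild-type libraries 2 and 4, 221 without wild-type library 3, 7 without library 5 and 6 without library 7. Nrp2 and Sema4d kept their direction and an unadjusted p under 0.05 in all 18 alternatives, Plxnd1 and Plxna2 in 17, Plxna4 in 15 and Plxna1 in 11. The cause of the other shifts was not tested. Mef2c stayed between 0.38 and 0.60 on the log2 scale. No paired analysis was possible because the groups share no replicate number.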
